A study of Mus musculus with 6 samples.

Results

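Ion channels, ion pumps and ionotropic transmitter receptors set the electrical behaviour of neurons, and 36 of the 5538 genes in the deposited expression table of the mouse perioculomotor midbrain belong to these families by name. The members were taken by gene symbol alone (potassium, sodium, calcium, chloride, HCN and TRP channel names, names of glutamate, GABA, glycine and nicotinic receptor subunits, and the Atp1 and Atp2 pumps), with no use of their values. By class they were 15 potassium channel genes, 2 sodium, 3 calcium and 3 chloride channel genes, 2 TRP names, 1 glutamate receptor gene, 3 GABA and glycine receptor genes, 5 genes of the sodium-potassium pump and 2 of the calcium pumps. One of them, Trpc4ap, encodes a protein that binds a TRP channel and is not itself a channel.

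The study sequenced RNA of the perioculomotor (pIII) region from C57BL/6 mice in 3 IP and 3 Input libraries. All mice carried CreER driven by the Fos promoter and a Cre-inducible eGFP-L10a reporter, a ribosomal protein fused to a green fluorescent tag, so that 4-OHT marks cells in which Fos was active around the time of injection. Every mouse was sleep deprived for 6 hr and allowed 3 hr of recovery sleep, with 4-OHT given at the start of either phase. The series text speaks of neurons labelled during recovery sleep, while the single libraries are labelled only IP or Input with a number. IP is RNA bound to tagged ribosomes and pulled down with eGFP antibodies, and Input is taken to be total tissue RNA from before the pull-down, a reading of the label. The labels give no age or sex. Each repeat pooled tissue of 4 to 5 mice, so the p-values measure the spread between pools, and since whole pieces of tissue were used, fewer cells of a type and less RNA per cell cannot be told apart.

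As background, a neuron's firing rests on gradients built by the sodium-potassium pump, an assembly of a catalytic alpha subunit and a beta subunit. Voltage-gated sodium channels open the action potential and potassium channels close it. Kv1 channels with their Kv-beta subunits sit along axons, and small-conductance calcium-activated channels shape the pause after a spike. The pIII region holds the oculomotor nucleus, whose motor neurons drive the eye muscles at high rates, beside peptide, dopamine and serotonin neurons.

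The values are TPM, which are scaled per transcript length and to a fixed total per library, so read depth is unknown. The median gene of a library lay between 27.7 and 67.2 TPM, and each library was therefore centred: a level below is log2(TPM + 1) minus the library's own median gene, and a difference is the mean IP level minus the mean Input level on that scale. IP 1 and Input 3 stood apart from the other libraries in their medians (27.7 and 31.1 TPM, against 51.0 to 67.2 TPM). They also stood apart in cell type markers. Oligodendrocyte markers summed to 357 and 528 TPM there, against 2889 to 4770 TPM in the other libraries. Serotonin markers summed to 156 and 136 TPM, against 685 to 2292 TPM. Cholinergic markers did not stand apart (412 and 326 TPM, against 186 to 643 TPM). The cause was not tested. Results are given with all 6 libraries first and then with IP 2 and IP 3 against Inputs 1 and 2. That smaller comparison leaves libraries out because of their values.

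No member passed the test of IP against Input over all 6 libraries (limma, Benjamini-Hochberg over 5538 genes, adjusted p 0.649 to 0.991 among members), and 0% of all genes passed in either direction. Relative to the median gene, the calcium-activated channel Kcnn1 was 2.93 times, the Kv6 subunit Kcng4 2.37 times, the inward rectifier Kcnj14 1.84 times and the Kv1 channel Kcna1 1.78 times as high in IP as it was in Input, while the pump subunits Atp1b2 and Atp1b3 were at 0.438 and 0.667 of their Input level. Of the members, 5 (13.9%) had an unadjusted p under 0.05 with a higher IP value, against 3.58% of all genes, and 2 (5.56%) with a lower IP value, against 3.85%. The 3 IP levels all lay above the 3 Input levels in 7 members (19.4%), against 6.93% of all genes, and all below in 2 members (5.56%), against 9.71%. Without centring, 2 members, Kcnn1 among them, had all IP values above all Input values, against 1.70% of genes, and 0 had them all below, against 6.21%. The median difference was 0.15 over the 36 members and 0.02 over all genes.

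**Figure D1:**
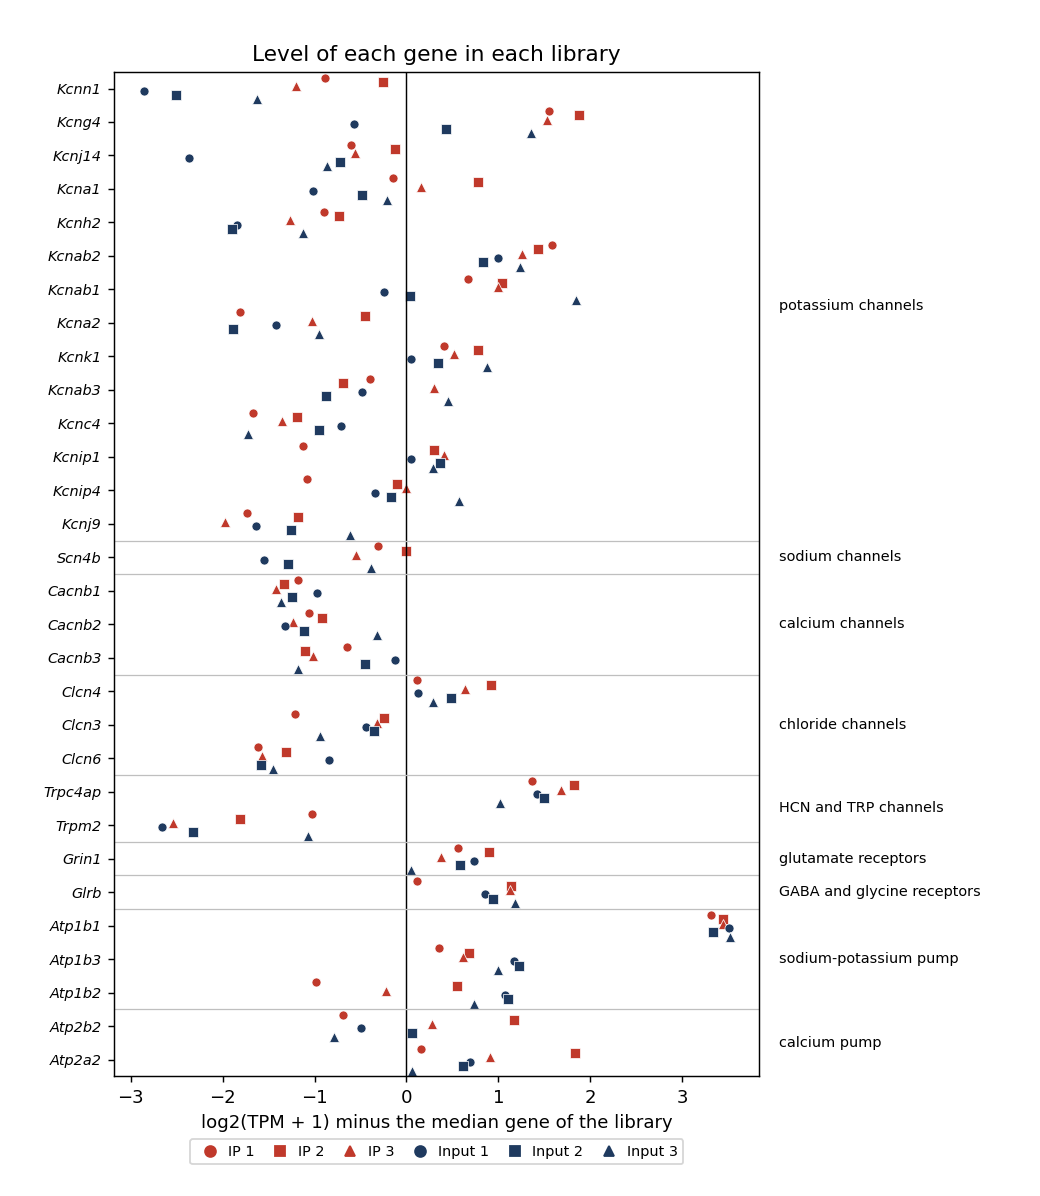
Level of 30 of the 36 genes (rows, by class) in each library on the horizontal axis, as log2(TPM + 1) minus that library's median gene, where red marks IP and blue marks Input, and marker shape gives the replicate (circle 1, square 2, triangle 3). The red points lie right of all blue points in Kcnn1, Kcng4, Kcnj14, Kcna1 and Kcnab2, and left of them in Atp1b2 and Atp1b3.

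With IP 2 and IP 3 set against Inputs 1 and 2, limma called 6 members higher in IP (16.7%, against 3.38% of all genes) and 0 lower (against 2.89%). They included Kcnab1, Kcng4, Kcnn1, Scn4b and Kcna1, with adjusted p of 0.0133, 0.0141, 0.0143, 0.0332 and 0.0359. With each library left out in turn, limma called 0 members (smallest adjusted p 0.110). The comparison of IP 2 and IP 3 with Inputs 1 and 2 leaves out libraries because of their values. Its p-values therefore omit part of the spread between pools and only describe the libraries kept. Without centring, that comparison called 3 members higher (Kcnn1, Kcng4 and Kcnab1, 8.33%, against 2.18% of all genes) and 3 lower (Cacnb3, Atp1b2 and Atp1b3, 8.33%, against 16.9%). So 3 of the 6 higher calls were lost without centring, where the median difference of all genes was -0.33 in place of -0.04. Across all genes of known transcript length (5354 genes), this difference had a Spearman rho of 0.25 with the length, and the members' median transcript was 2689 bases long against 1631 for all. Over the 36 members the rho was 0.15, and the part of length in the calls was not tested.

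**Figure D2:**
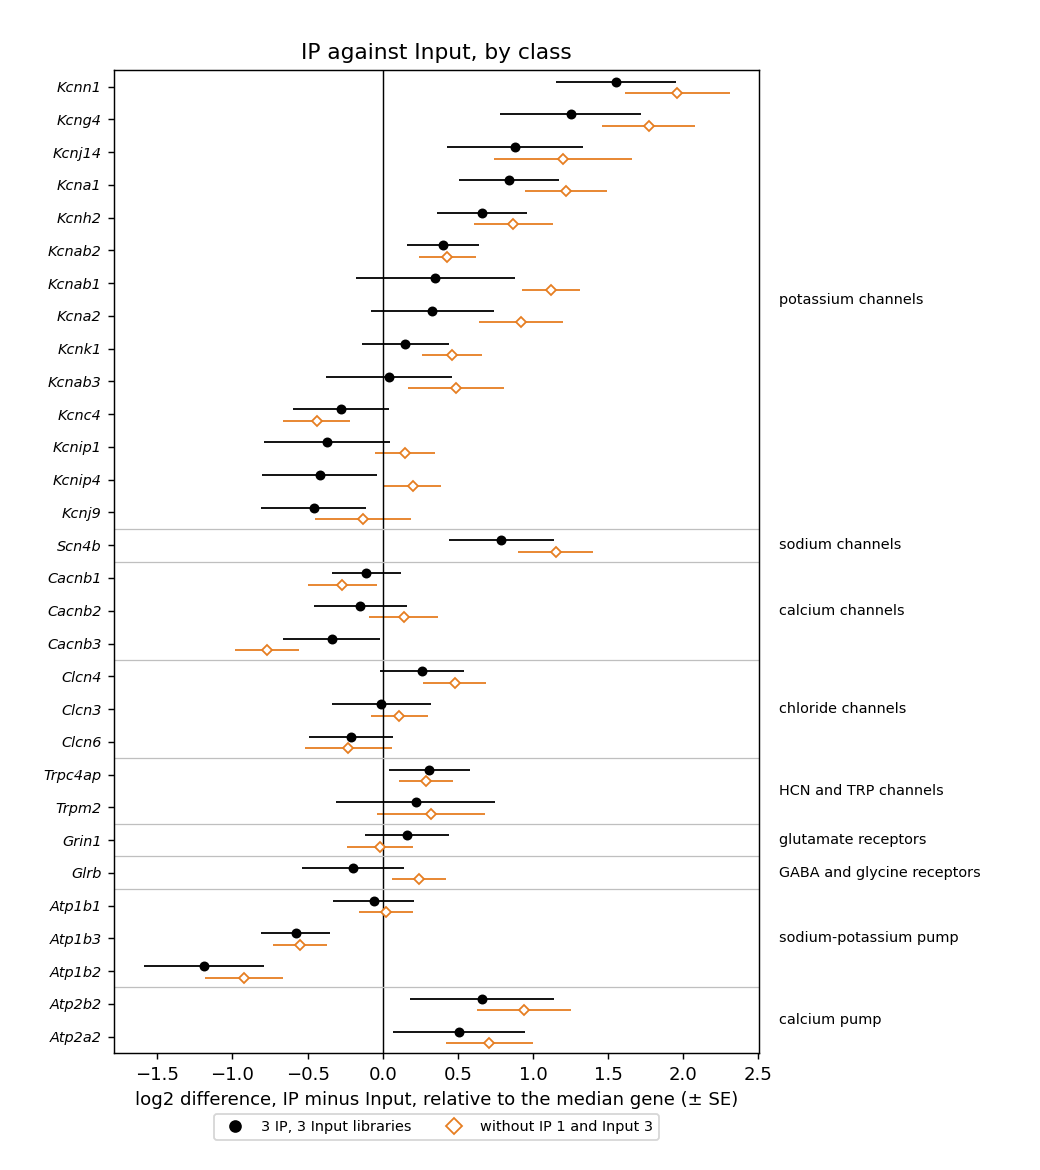
Difference between IP and Input relative to the median gene (horizontal axis, log2, with bars of 1 SE) for 30 of the 36 genes by class, with filled circles for all 6 libraries and open diamonds for the comparison without IP 1 and Input 3. Kcnn1 and Kcng4 lie above 1 in both, and Atp1b2 and Atp1b3 lie below 0 in both.

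The annotation (GENCODE M21, GRCm38, the assembly also called mm10) holds 243 protein-coding genes with such names, of which 36 (14.8%) have a row, against 24.3% of all protein-coding genes. Every value in the table is at least 7 TPM, so the members are channel genes listed at or above that level in each library. Of auxiliary subunits, 3 of 3 Kcnab, 3 of 4 Cacnb, 2 of 4 Kcnip, 0 of 4 Cacna2d and 0 of 8 Cacng genes had a row. Genes of the 10 Scn alpha subunits, the 10 Cacna1 pores, the 4 AMPA receptor subunits (Gria), the 16 nicotinic subunits (Chrn), the 4 Hcn and the 5 Kcnq channels had no row and were not analysed here.

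The promoters of Kcnn1 and Kcng4, of the higher potassium channel genes, and of Atp1b3, a lower pump gene, are shown to let their base composition be compared. They are RefSeq windows on GRCm38.p6, minus strand, ending at the base before the annotated start, and capitals mark matches on either strand to 4 short motifs. These were the GC box, spelled GGGCGG, the TATA box, which was searched for as TATAAA, the CCAAT box, whose name gives its letters, and the core of the CRE, spelled TGACG. None of the capitals overlap another motif.
Kcnn1, chr8:70863259-70863508: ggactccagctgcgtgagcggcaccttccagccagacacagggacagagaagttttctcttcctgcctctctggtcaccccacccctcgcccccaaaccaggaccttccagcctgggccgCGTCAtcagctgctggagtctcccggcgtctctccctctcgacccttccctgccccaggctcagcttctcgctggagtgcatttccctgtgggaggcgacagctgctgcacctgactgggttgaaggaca
Kcng4, chr8:119635681-119635930: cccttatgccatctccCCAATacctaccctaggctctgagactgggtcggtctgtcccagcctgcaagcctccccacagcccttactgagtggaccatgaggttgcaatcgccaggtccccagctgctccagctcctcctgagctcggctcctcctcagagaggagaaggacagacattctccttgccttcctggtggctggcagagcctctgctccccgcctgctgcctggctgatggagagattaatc
Atp1b3, chr9:96364443-96364681: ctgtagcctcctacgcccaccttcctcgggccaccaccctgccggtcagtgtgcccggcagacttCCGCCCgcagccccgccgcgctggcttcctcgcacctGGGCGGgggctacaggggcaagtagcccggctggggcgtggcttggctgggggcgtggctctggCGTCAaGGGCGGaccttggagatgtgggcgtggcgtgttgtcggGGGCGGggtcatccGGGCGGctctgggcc
The Atp1b3 window held 5 GC boxes and 22 CpG in 239 bases, while the Kcnn1 and Kcng4 windows held 0 GC boxes and 10 and 4 CpG in 250 bases each. The median over all windows was 6 CpG and 52.4% GC. All 3 windows lay above that GC share, with 73.6% (Atp1b3), 63.6% (Kcnn1) and 60.4% (Kcng4). Of all 32851 RefSeq windows of 250 bases, 32.7% held a GC box, 12.4% a TATA box, 33.8% a CCAAT box and 17.8% a CRE core, so the single CCAAT of Kcng4 and the single CRE core of Kcnn1 are common matches. A window was found for 25 of the 36 members, and a match describes letters only.

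Potassium channel genes had a median difference of 0.35, with 11 of 15 positive, against 2869 of 5538 genes. In 6 of them IP lay above Input in every library (40%, against 6.93% of all genes). Of these 6, Kcnn1 alone stayed separate without centring. The 10 genes of alpha or pore-forming subunits had a median of 0.75 and the 5 genes of cytosolic auxiliary subunits one of 0.04. Without IP 1 and Input 3 these medians were 1.06 and 0.43, with 8 of 10 and 5 of 5 positive. Kcnc4, the channel Kv3.4, had 8.01, 24.3 and 19.2 TPM in the IP libraries and 39, 34.2 and 8.74 TPM in the Input libraries, here and below in the order of replicates 1, 2 and 3. Its groups overlapped, with a difference of -0.28 (SE 0.32).

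Kcnn1, the small-conductance calcium-activated channel SK1 (chromosome 8, 70842049 to 70863258, minus strand), had 14.5, 46.9 and 21.6 TPM in IP and 7.98, 11 and 9.35 TPM in Input. These groups did not overlap with or without centring, although the Input values lay close to the lowest value the table lists. The difference was 1.55 (SE 0.40, limma adjusted p 0.649) with all libraries and 1.96 (SE 0.35) without IP 1 and Input 3. Kcng4 (chromosome 8, 119623854 to 119635680, minus strand) encodes Kv6.4, which forms no channel alone and modifies Kv2 channels. It had 83.0, 211 and 149 TPM in IP and 43.1, 90.8 and 81.5 TPM in Input. Input 3 came close to the IP libraries in centred level (1.36 against 1.53 to 1.88), and the difference was 1.25 (SE 0.47) with all libraries, 0.76 without Input 1 and 1.72 without Input 3.

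Of the Kv1 genes, Kcna1 separated the groups and Kcna2 did not. Kcna1, the axonal channel Kv1.1 (chromosome 6, 126640397 to 126646384, minus strand), had 24.9, 98 and 57.0 TPM in IP and 31.2, 48.0 and 26.7 TPM in Input, a difference of 0.84 (SE 0.33). After centring, IP 1 exceeded Input 3 by little (-0.15 against -0.21), so the separation of the groups was narrow. Kcna2 (Kv1.2) had 7.20, 41.1 and 24.5 TPM in IP and 23.3, 17.4 and 15.6 TPM in Input, with overlapping groups and a difference of 0.33 (SE 0.41). The Kcna1 to Kcna2 ratio was 3.46, 2.38 and 2.33 in IP and 1.34, 2.76 and 1.71 in Input (two-sided exact permutation p 0.300, adjusted over 4 ratios 0.400).

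The Kv-beta subunits bind Kv1 channels in the cytosol. Kcnab2, the potassium channel gene with the highest mean TPM, had 85, 154 and 124 TPM in IP and 129.9, 119.8 and 74.6 TPM in Input, a difference of 0.40 (SE 0.24) in which the lowest centred IP level exceeded the highest Input level by little (1.26 against 1.24). Kcnab1 had 44.5, 117 and 103 TPM in IP and 54.2, 69.2 and 115 TPM in Input. Its highest centred level was in Input 3 (1.85), so the call of Kcnab1 in the smaller comparison (difference 1.12) exists only with that library left out, and with all libraries the difference was 0.35 (SE 0.53). Kcnab3 had a difference of 0.04 (SE 0.42).

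Kcnj14 encodes Kir2.4, an inward rectifier known from cranial motor nuclei. It had 17.9, 51.5 and 34.2 TPM in IP and 11.7, 40.3 and 16.7 TPM in Input, a difference of 0.88 (SE 0.45) that was 0.36 without Input 1, the library with the lowest value. Kcnh2, the ERG1 channel, had 14.4, 33.6 and 20.6 TPM in IP and 17.1, 17.3 and 13.7 TPM in Input (difference 0.66, SE 0.30, overlapping groups). Kcnk1, the two-pore channel TWIK1, had a difference of 0.15 (SE 0.29), with 37.1 to 97.8 TPM in IP and 57.9 to 85.2 TPM in Input.

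Other potassium channel genes had negative differences. Kcnj9, the G protein-gated channel GIRK3, had 7.61, 24.5 and 12.1 TPM in IP and 20, 27.4 and 19.9 TPM in Input, a difference of -0.46 (SE 0.35). Kcnip1 and Kcnip4 encode KChIP proteins that bind A-type Kv4 channels. Kcnip1 had 12.1, 69.7 and 68.1 TPM in IP against 66.8, 86.3 and 38.2 TPM in Input, and Kcnip4 12.5, 52.6 and 50.6 TPM against 50.6, 59.7 and 46.6 TPM. Both were lowest in IP 1. Their differences were -0.37 (SE 0.42) and -0.42 (SE 0.38) with all libraries, and 0.15 and 0.20 without IP 1 and Input 3.

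**Figure D3:**
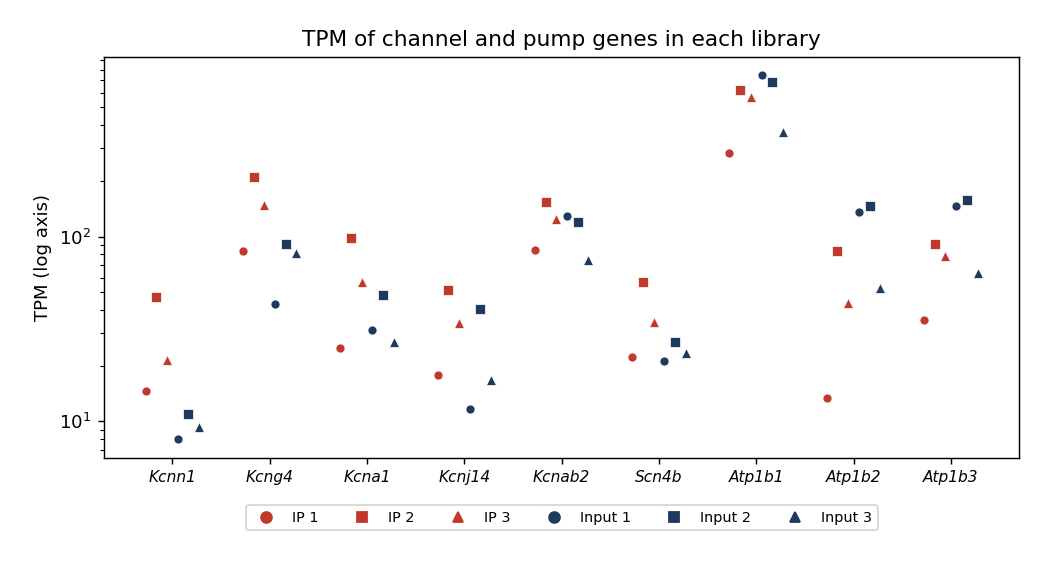
Uncentred TPM (log axis) of 9 channel and pump genes, with red markers for IP, blue markers for Input and the marker shape giving the replicate (circle 1, square 2, triangle 3). In Kcnn1 every IP point lies above every Input point, while Atp1b2 and Atp1b3 are lower in IP 1, IP 2 and IP 3 than in Inputs 1 and 2.

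Sodium channel beta subunits are single-pass membrane proteins that tune the gating and placement of the pore. Scn4b, the beta4 subunit, is tied to resurgent sodium current in fast-firing neurons. It had 22.2, 56.4 and 34.4 TPM in IP and 21.3, 26.8 and 23.5 TPM in Input. Its difference was 0.79 (SE 0.35), with Input 3 inside the range of the IP levels, and 1.15 (SE 0.25) without IP 1 and Input 3.

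Markers listed for cholinergic motor neurons had positive differences beside those of these channel genes. The list does not tell motor neurons from other cholinergic neurons. All 5 listed genes (Chat, Slc18a3, Isl1, Slc5a7 and Prph) had a row and a difference above 0, with a median of 1.28. IP lay above Input in every library in 3 of 5 (60%, against 6.93% of all genes). None of them passed over the 6 libraries (limma adjusted p 0.649 to 0.732). Without IP 1 and Input 3, limma called 5 of 5 higher (adjusted p 0.00350 to 0.0470), against 3.38% of all genes. That comparison leaves out the Input library nearest to IP in these markers. Their median centred level was 0.41 in Input 3, -0.87 and -0.88 in Inputs 1 and 2, and at least 0.60 in each IP library. Slc18a3 had 176 TPM in Input 3 against 132 TPM in IP 3, and Slc5a7 41.7 TPM against 16.5 TPM in IP 1. The summed level of the 5 markers was 412 to 643 TPM in IP and 186 to 326 TPM in Input. Their part in the channel results was not tested. General neuron markers (Rbfox3, Snap25, Syt1, Tubb3, Map2 and Stmn2) had a median difference of -0.33, with 2 of 6 positive and sums of 1690 to 4098 TPM in IP and 2945 to 5211 TPM in Input. Dopamine and serotonin markers had medians of -0.87 (3 of 4 with a row) and -0.48 (2 of 3), and the 2 of 4 GABA neuron markers with a row one of -0.54. Without IP 1 and Input 3 these were -1.06, -1.01 and 0.10.

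Atp1b1, the main neuronal beta subunit of the sodium-potassium pump, had 283, 623 and 567 TPM in IP and 745, 689 and 368 TPM in Input. Centred, its 6 levels lay within 3.31 to 3.52 and the difference was -0.06 (SE 0.27). The 5 pump genes together made up 41.7% to 47.0% of the TPM of the 36 members in IP and 47.7% to 52.3% in Input.

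Atp1b2 and Atp1b3 had lower centred levels in all IP libraries. Atp1b2 (chromosome 11, 69599736 to 69605942, minus strand), an adhesion molecule of astrocytes as well as a pump subunit, had 13.4, 83.4 and 43.5 TPM in IP and 136, 146 and 52.5 TPM in Input. Centred, every IP level lay below every Input level, with a difference of -1.19 (SE 0.40, limma adjusted p 0.649, unadjusted p 0.0189) and of -0.92 (SE 0.26) without IP 1 and Input 3. Atp1b3 (chromosome 9, 96332655 to 96364442, minus strand) had 35.4, 91.5 and 78.5 TPM in IP and 146, 158 and 63.3 TPM in Input, a difference of -0.58 (SE 0.23) with groups that did not overlap after centring.

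Ratios within a library are free of the scaling, but they restate the same values and are no separate evidence. Atp1b1 over Atp1b2 was 21.1, 7.47 and 13 in IP and 5.47, 4.73 and 7.0 in Input. Atp1b3 over Atp1b1 was 0.125, 0.147 and 0.138 in IP and 0.196, 0.230 and 0.172 in Input. Neither ratio overlapped between the groups, though Atp1b1 over Atp1b2 did so narrowly (7.47 in IP 2 against 7.0 in Input 3). Each ratio had a two-sided exact permutation p of 0.10, and 0.200 adjusted over the 4 ratios tested. A p of 0.10 is the smallest that 3 against 3 libraries allow, so no ratio could pass.

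**Figure D4:**
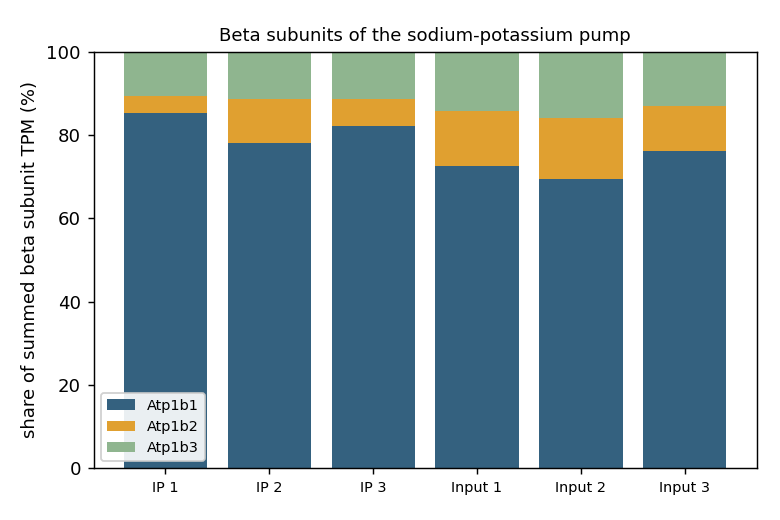
Share of each beta subunit in the summed TPM of Atp1b1, Atp1b2 and Atp1b3 per library (stacked bars, percent). Atp1b1 makes up 78.1% to 85.3% in IP and 69.4% to 76.1% in Input.

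Astrocyte markers were among several marker lists with a negative median. The 4 of 9 listed astrocyte genes with a row (Aldoc, Glul, Gfap and Ntsr2) had a median difference of -0.32 with 0 positive, and summed to 687 to 1994 TPM in IP and 708 to 3642 TPM in Input. The IP and Input levels overlapped in all 4. General neuron (-0.33), serotonin (-0.48), GABA (-0.54) and dopamine (-0.87) markers had medians as low or lower. The part of astrocyte RNA in the Atp1b2 value was not tested. Oligodendrocyte markers (5 of 7 with a row) had a median of -0.05, and of -0.43 without IP 1 and Input 3. The microglial marker Ctss (1 of 6 with a row) had -0.49. The endothelial marker Ly6c1 (1 of 5 with a row) had 1.92, with 50.3, 278 and 67.3 TPM in IP and 34.9, 35.4 and 21.9 TPM in Input. The 4 ependymal markers had no row.

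Of the calcium pumps, Atp2b2, the plasma membrane pump PMCA2, had 16.8, 128 and 62.0 TPM in IP and 45.6, 70.1 and 17.6 TPM in Input. Atp2a2, the SERCA2 pump that fills the endoplasmic reticulum, had 31.0, 204 and 96.3 TPM in IP and 105, 103 and 32.4 TPM in Input. Their differences of 0.66 (SE 0.48) and 0.51 (SE 0.44) lay within the spread of the libraries, with IP 2 highest in both. The calcium channel genes with a row encode cytoplasmic beta subunits, and their differences were -0.11 (Cacnb1, SE 0.23), -0.15 (Cacnb2, SE 0.31) and -0.34 (Cacnb3, SE 0.32). Cacnb3 had 17.3, 25.8 and 24.6 TPM in IP against 59.0, 48.9 and 13.1 TPM in Input, so that Input 3 lay below all IP libraries and Inputs 1 and 2 above them.

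The chloride channel family members with a row act mainly in intracellular vesicles. Clcn4 had a difference of 0.26 (SE 0.28), Clcn3 one of -0.01 (SE 0.33) and Clcn6 one of -0.21 (SE 0.28), all with overlapping groups. Clcn4 was the most abundant, with 30, 108 and 80.0 TPM in IP and 70.0, 94 and 38.1 TPM in Input. Trpm2, a cation channel opened by ADP-ribose, had 7.91 to 15.4 TPM in IP and 9.32 to 14.2 TPM in Input (difference 0.22, SE 0.53), and Trpc4ap 73 to 203 TPM and 64.1 to 192 TPM (0.31, SE 0.27).

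Neither receptor gene described here separated the groups. Grin1, the subunit common to NMDA receptors, had 41.2, 106 and 66.6 TPM in IP and 108, 101 and 32.3 TPM in Input (difference 0.16, SE 0.28). Glrb, which links glycine receptors to their synaptic scaffold, had 29.8, 126 and 112 TPM in IP and 117, 129.8 and 71.9 TPM in Input. Its lowest library was IP 1, and the difference was -0.20 (SE 0.34) with all libraries and 0.24 (SE 0.18) without IP 1 and Input 3.

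Members differed in how far IP 1 departed from IP 2 and IP 3. IP 1 held the lowest centred level of 11 members (30.6%, against 23.7% of all genes), and IP 2 the highest of 17 (47.2%, against 13.8%). Kcnip1, Atp2b2, Atp2a2 and Atp1b2 were low in IP 1, at -1.48, -1.41, -1.21 and -1.16 log2 units from the mean of IP 2 and IP 3, while Kcnn1 and Kcng4 departed by -0.15 and -0.16. Trpm2 was higher in IP 1, by 1.14. Across all genes with a length, the departure of IP 1 had a Spearman rho of -0.37 with transcript length, and across the 36 members -0.27. These are descriptions across genes of the same libraries.

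**Figure D5:**
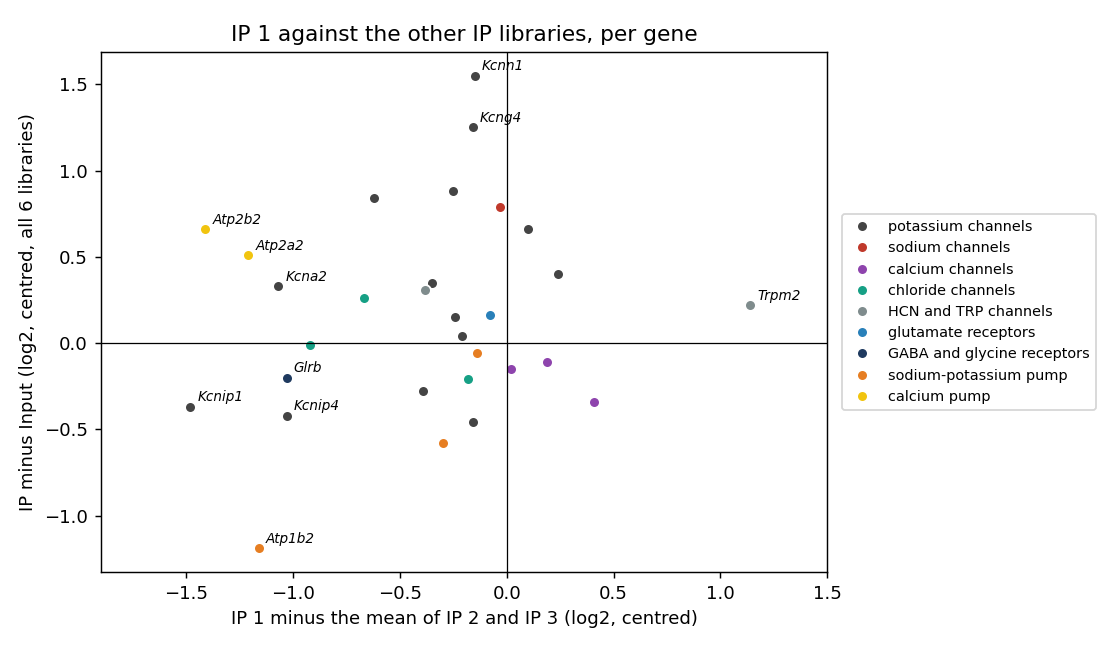
Each point is one of 30 of the 36 genes, coloured by class, with the centred level in IP 1 minus the mean of IP 2 and IP 3 on the horizontal axis (log2) and the difference between IP and Input over all 6 libraries on the vertical axis (log2). Kcnip1 and Atp1b2 lie at the lower left, at -1.48 and -1.16 on the horizontal axis, and Kcnn1 and Kcng4 at the top, at -0.15 and -0.16.

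Genes that work with channels but have other names showed no common direction. Of 103 listed genes for pump modulators, anchors, further channel subunits, receptor clustering and ion gradients, 35 had a row, 0 passed limma's test (percentage over all genes 0), and their median difference was 0.01 with 18 positive. The IP levels lay all above Input in 3 (Lynx1, Lgi3 and Tmem63b, 8.57%, against 6.93% of all genes) and all below in 2 (Fgf12 and Cntnap2, 5.71%, against 9.71%), shares near those of the table. Without IP 1 and Input 3, limma called 2 of the 35 higher (5.71%, against 3.38% of all genes) and 3 lower (8.57%, against 2.89%). The higher genes were Sptan1 at 1.28 and Ank2 at 1.26 (limma adjusted p 0.00736 and 0.0107). The lower genes were Fxyd6 at -1.41, Fxyd7 at -1.16 and Cnih2 at -0.92 (limma adjusted p 0.00475, 0.0130 and 0.0222). Lynx1, a membrane-tethered modulator of nicotinic receptors, had 61.7, 93.2 and 89.8 TPM in IP and 85.4, 67.7 and 24.7 TPM in Input (difference 0.85, SE 0.27). Fxyd6 and Fxyd7, small modulators of the sodium-potassium pump, had differences of -1.20 (SE 0.47) and -0.44 (SE 0.44) with all libraries. Fxyd6 had 32.3, 121 and 100 TPM in IP and 321, 401 and 62.4 TPM in Input, with Input 3 inside the range of the IP libraries. Of the anchors, Sptan1 and Ank2 of the spectrin-ankyrin scaffold had 0.78 (SE 0.48) and 0.62 (SE 0.57) with all libraries, and Cntnap2 and Cntn1, which help place Kv1 channels along axons, -0.45 (SE 0.27) and -0.46 (SE 0.48).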

How the data were processed

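The authors deposited TPM values per gene for 3 IP and 3 Input libraries, per the file headers. RSEM, DESeq and mm10 appear in the submitters' processing notes, with no version or role, and the aligner and the use of strand are not given in the sources used here. TPM keep no depth, so no counting interval can be given. All 6 value columns were used, and 0 members share their values with another row.

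TPM were transformed to log2(TPM + 1), centred on the median gene of each library and compared by limma 3.58.1 in R 4.3.3 (eBayes with trend, group as the only term), adjusted over all 5538 genes at a threshold of 0.05. No further filter was used. Differences on this scale understate those of genes with low TPM. Ratios of paralogs were compared by exact permutation, over the 4 of 18 listed pairs with both genes measured.

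The symbol pattern uses no values, but these gene families, the gene lists and the alternative without IP 1 and Input 3 were chosen with earlier results of these data known. Named genes were, of each class, up to 4 members with the smallest p and the one with the highest mean TPM, plus members past the threshold or with separate groups (26 genes). Results of 6 members are not reported here, and those of 30 are. All 36 entered the fits and the counts over members. Alternatives were no centring, quantile normalization, a pseudocount of 0.1, a mean of at least 20 TPM, a replicate block and leaving out each library. The main fit did not pair libraries by replicate number, since the labels do not say whether same-numbered libraries share a pool.

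Positions and overlaps come from GENCODE M21. Exons of 13 of the 30 members overlap a gene on the opposite strand, among them Kcnn1 (A230052G05Rik) and, with genes that have a row, Atp1b1 (Nme7) and Kcnip4 (5730480H06Rik), so reads of these cannot be told apart without strand.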

Additional observations from a re-analysis of the deposited data

How the results depend on the processing

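Under quantile normalization, a pseudocount of 0.1 TPM, a mean of at least 20 TPM and the replicate block, the members described that had a value kept their direction (30, 30, 25 and 30 genes) and 0 were called. Same-numbered IP and Input libraries deviated from their groups with r of -0.10, 0.25 and -0.17. The labels do not say whether same-numbered libraries share a pool. These correlations cannot decide it, since they rest on 3 libraries per group, with IP 1 and Input 3 standing apart. With the block, 0 genes of the table were called, and 5 members were higher and 1 lower at an unadjusted p under 0.05 (3.34% and 2.47% of all genes). Members called stayed at 0 and 0 with each library left out, and all genes called ranged from 0 to 16 higher and 0 to 1 lower, the 16 and 1 without Input 3. Without IP 1 and Input 3, 6 members were called higher, and 187 genes of the table higher and 160 lower. With no centring as well, an alternative added after the data were seen, these were 3 members higher and 3 lower, and 121 and 936 genes. Members with all IP above all Input were 2 with no centring, 7 to 13 with a library left out and 21 without both, against 1.70%, 9.10% to 18.1% and 25.2% of all genes. Those with all IP below were 0, 2 to 4 and 5, against 6.21%, 12.5% to 20.2% and 31.5%.

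Without IP 1 and Input 3 the class medians were 0.87 for potassium channels and -0.27 for calcium channels, against -0.04 for all genes. With no centring as well they were 0.59 and -0.55, with -0.30 for Grin1, against -0.33 for all genes. With no centring alone, potassium channels had 0.11 and calcium channels -0.40, against -0.23 for all genes. With a library left out, the medians ranged from 0.11 to 0.56 (potassium), -0.25 to -0.07 (calcium), -0.19 to 0.29 (chloride) and 0.14 to 1.02 (calcium pumps).

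Directions turned in the following genes. With no centring these were Grin1 (-0.09), Kcnab3 (-0.20), Kcnk1 (-0.10) and Trpm2 (-0.02). Without IP 1 and Input 3 they were Atp1b1 (0.02), Cacnb2 (0.14), Clcn3 (0.11), Glrb (0.24), Grin1 (-0.02), Kcnip1 (0.15) and Kcnip4 (0.20), and with no centring as well Grin1 (-0.30). With a library left out the ranges crossed 0 in Cacnb2 (-0.35 to 0.15), Clcn3 (-0.19 to 0.29), Clcn6 (-0.35 to 0.01), Glrb (-0.38 to 0.14), Grin1 (-0.04 to 0.30), Kcnab1 (-0.04 to 1.0), Kcnab3 (-0.25 to 0.42), Kcnip1 (-0.65 to 0.12), Kcnk1 (-0.04 to 0.38) and Trpm2 (-0.16 to 0.70). With no centring every gene moved by the same amount, as only the baseline changed. The cause of the changes with libraries left out was not tested.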
